A study of Homo sapiens with 6 samples.

Results

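Noncoding host genes of small nucleolar RNAs (snoRNAs) were examined in U2932 cells, a human lymphoma line of the activated B-cell-like (ABC) type of DLBCL, or diffuse large B-cell lymphoma. The members were chosen by symbol, as GAS5, SNHG1, SNHG3, SNHG5, SNHG6, SNHG7, SNHG8, SNHG12, SNHG15 and SNHG16, and all 10 were found among the 20667 gene symbols of each library. The study silenced ROCK2, a serine-threonine kinase, with a lentiviral shRNA (ROCK2 KD) and used a scrambled shRNA (Scr shRNA) in the control cells. Both groups carried a pLKO.1 vector with puromycin resistance and tGFP, were made into stable lines by sorting and puromycin, and gave 3 RNA-seq libraries each, numbered as replicates 1 to 3 in both. ROCK2 KD rests on an shRNA construct in a single cell line, and no label says whether the replicates came from separate infections or cultures, so p values measure only the spread between these libraries, which may be technical.

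snoRNAs of the C/D box kind guide ribose methylation of ribosomal RNA, and those of the H/ACA box kind guide its pseudouridylation. Most human snoRNAs lie in introns and are released when the host transcript is spliced, so that the noncoding host genes are known chiefly for what their introns carry. The spliced exons of several hosts begin with a pyrimidine tract like that of ribosomal protein mRNAs (a 5′ terminal oligopyrimidine, or TOP, start), are engaged by ribosomes and are then cleared by nonsense-mediated decay. The steady level of a host RNA therefore depends on both its synthesis and its decay. GAS5 was named for its accumulation in growth-arrested cells, and SNHG5 was first described at a chromosomal breakpoint of a human B-cell lymphoma.

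By RefSeq positions, 36 small RNAs lay within the 10 hosts, 25 of the C/D box kind and 10 of the H/ACA box kind. GAS5 held 11 of them and SNHG1 9, SNHG12 held 4 and SNHG16 3, and SNHG3, SNHG5 and SNHG7 held 2 each. SNHG6, SNHG8 and SNHG15 held 1 each.

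The RefSeq sequences around the annotated starts were examined because a TOP start is a feature that some hosts share with ribosomal protein genes. A RefSeq promoter window (GRCh38.p14, 250 bases before the start and 50 from it on) was found for 8 of the 10 hosts, and not for SNHG6 and SNHG15. The lines below give 30 bases before the start and 40 from it on, 5′ to 3′. Capitals mark a C followed without a break by at least 4 C or T, read from the first such C within 10 bases of the start. Letters before that window stay in lower case, so that in SNHG7 the unbroken C and T letters go on upstream of the capitals. A later run also stays in lower case, as in SNHG7, where another such run begins at the base just before the start.
SNHG12 (chr1:28581834-28581903, minus strand): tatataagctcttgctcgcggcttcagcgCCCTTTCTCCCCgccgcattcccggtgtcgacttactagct
SNHG5 (chr6:85678694-85678763, minus strand): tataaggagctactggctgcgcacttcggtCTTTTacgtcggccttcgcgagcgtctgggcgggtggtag
SNHG7 (chr9:136728145-136728214, minus strand): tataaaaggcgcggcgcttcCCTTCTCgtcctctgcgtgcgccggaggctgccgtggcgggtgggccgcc
SNHG8 (chr4:118278732-118278801, plus strand): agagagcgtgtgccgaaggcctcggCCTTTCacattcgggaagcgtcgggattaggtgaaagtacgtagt
SNHG16 (chr17:76557734-76557803, plus strand): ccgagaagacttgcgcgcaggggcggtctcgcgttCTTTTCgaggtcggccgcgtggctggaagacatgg
SNHG1 (chr11:62855846-62855915, minus strand): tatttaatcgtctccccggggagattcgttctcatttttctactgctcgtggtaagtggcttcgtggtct
GAS5 (chr1:173869006-173869075, minus strand): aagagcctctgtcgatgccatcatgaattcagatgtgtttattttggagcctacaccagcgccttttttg
SNHG3 (chr1:28505913-28505982, plus strand): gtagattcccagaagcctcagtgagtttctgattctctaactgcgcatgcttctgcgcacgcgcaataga

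Such a run stood at the start base itself in SNHG5 and SNHG12, 2 of the 8 hosts, against 4.07% of the 35116 promoter windows. Within 10 bases of the start it was present in 5 of the 8, with SNHG7, SNHG8 and SNHG16 in addition, against 33.5% of all windows. In SNHG12 the capitals cover 12 bases, the most among the 5. In GAS5, SNHG1 and SNHG3 no such run began within 10 bases of the start, though each of them holds one further out in the letters shown. The start annotated for a gene need not be the one used in these cells, and the absence of these letters says nothing of a factor. The E-box CACGTG, which reads the same on both strands, was present in 1 of the 8 windows, that of SNHG7, against 7.26% of all windows.

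Levels are given as FPKM, fragments scaled by transcript length and by the mapped fragments of the library, as deposited by the authors. They allow levels of different genes to be set side by side per length. The FPKM of a library summed to between 208289 and 480612, with the pair of replicate 1 lowest. FPKM hold no read counts, and from the spacing of the lowest values the libraries had 71.4% to 92.7% of the depth of the deepest, Scr shRNA replicate 3. Of the B cell markers, CD79A was present in every library, between 160 and 458 FPKM, while the summed FPKM of the T cell, myeloid and fibroblast markers stayed at or below 0.758. Among them CD3E was at 0.298 to 0.758 in ROCK2 KD and at 0.0902 to 0.221 in Scr shRNA, CD3D was at 0 in 5 of the 6 libraries, and their part in the results was not tested. Of the epithelial pair, EPCAM reached 5.00 FPKM and KRT18 0.105. ROCK2 itself averaged 3.12 ± 2.07 FPKM (SD, n = 3) under its shRNA against 5.77 ± 1.44 in the control (SD, n = 3), with log2 differences of -0.54, -0.36 and -1.52 in pairs 1, 2 and 3.

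By their mean over the 6 libraries, SNHG5, GAS5 and SNHG6 were the hosts with the highest levels in U2932 cells, and SNHG12 and SNHG3 those with the lowest. Among the 10526 genes with 1 FPKM or more in 3 or more of the 6 libraries, which include all 10 hosts, SNHG5 lay at the 98.6th to 98.8th percentile in the 6 libraries. After each library was scaled to a common level (scaled FPKM), SNHG5 averaged 370 ± 80.3 (SD, n = 6), SNHG6 231 ± 104 and GAS5 224 ± 144. Then came SNHG8 at 143 ± 35.7, SNHG1 at 111 ± 81.1, SNHG15 at 51.2 ± 16.4 and SNHG7 at 39.3 ± 22.3. SNHG16 at 19.6 ± 6.17, SNHG12 at 13.2 ± 12.8 and SNHG3 at 11.8 ± 3.74 closed the order. Only the neighbours SNHG1 and SNHG15, and SNHG15 and SNHG7, kept their order in all 6 libraries. SNHG6 was above GAS5 in 3 of the 6 and SNHG12 above SNHG3 in 2 of the 6, so neither order held beyond the spread, and the other neighbours kept theirs in 4 or 5 of the 6. GAS5 was the highest host in both libraries of replicate 1, where SNHG5 was in the third place, while SNHG5 was the highest in the other 4 libraries. SNHG8 was in the second place in both libraries of replicate 2, above SNHG6 and GAS5. SNHG12 was above SNHG16 in both libraries of replicate 1, and its percentile ran from 14.0 to 84.1 over the 6 libraries.

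**Figure D1:**
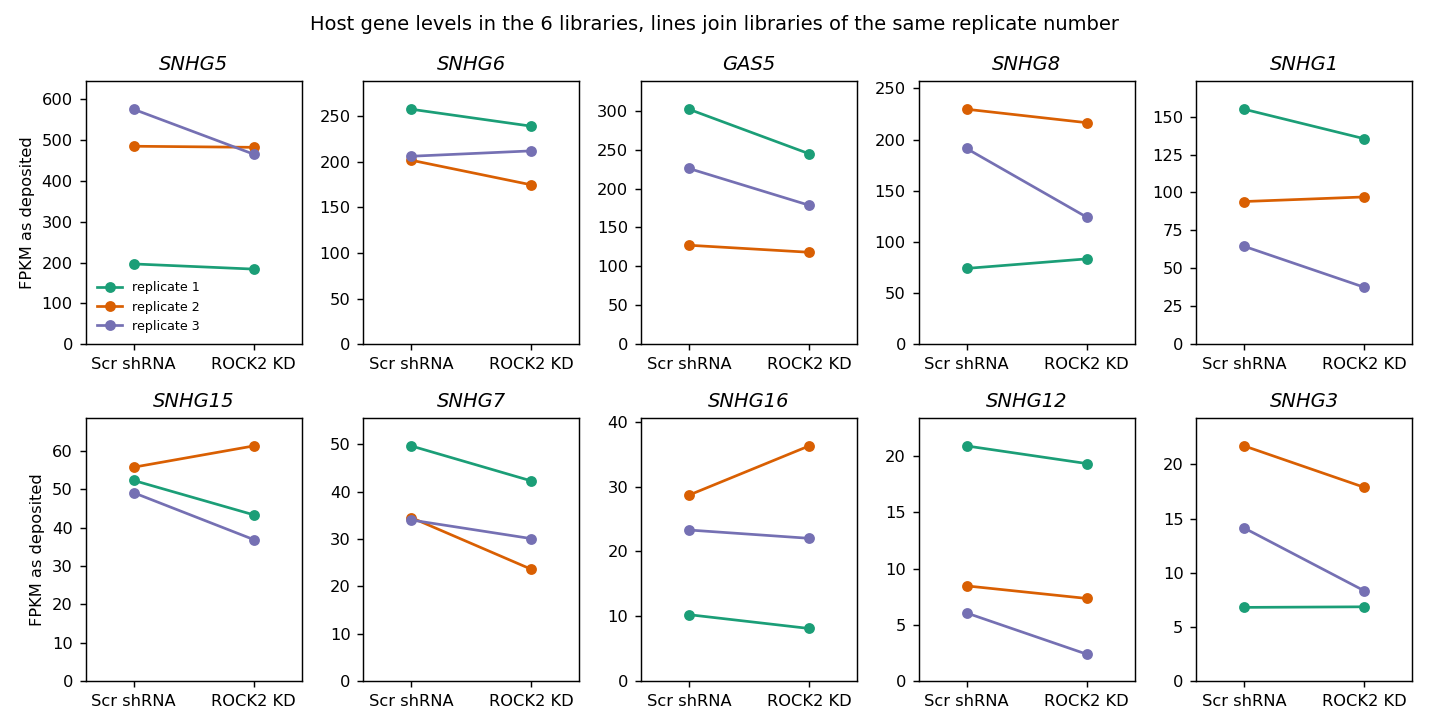
Deposited FPKM (linear y axes starting at 0, a scale of its own for each gene) of the 10 host genes in Scr shRNA and ROCK2 KD libraries, where each point is a library and a line joins the libraries of the same replicate number. The lines lie further apart than their ends differ for most genes, and in GAS5, SNHG5, SNHG7 and SNHG12 all 3 lines slope down towards ROCK2 KD.

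The host genes were next compared between ROCK2 KD and Scr shRNA within replicate numbers, by limma on log2(scaled FPKM + 1) with the replicate number as a block, where a fold change understates that of low genes. All 10 had a log2 fold change below 0, from -0.44 for SNHG12 to -0.03 for SNHG16, with a median of -0.22. Among all genes tested 51.3% had a fold change below 0 and the median was 0.00. No host passed an adjusted p of 0.05 from limma with the block, and neither did any other gene (0% of those tested, with 567 at an unadjusted p under 0.05). GAS5 and SNHG7 had an unadjusted p under 0.05 and were lower in ROCK2 KD, 2 of 10 hosts against 2.3% of all genes tested. Lower values in all 3 pairs were seen for 4 hosts, GAS5, SNHG5, SNHG7 and SNHG12, against 12.3% of all genes tested. Over hosts and pairs together, 24 of the 30 differences were below 0. These were 8 of 10 in pair 1, 7 of 10 in pair 2 and 9 of 10 in pair 3. The 10 hosts share the same 3 pairs of libraries, so these differences are not independent. All genes tested had median differences of 0.011, -0.007 and -0.0008 in pairs 1, 2 and 3, and their share below 0 in each pair was not counted. The ROCK2 KD and Scr shRNA libraries overlapped in scaled FPKM for each of the 10 hosts, where 0.903% of all genes tested had every ROCK2 KD library below every Scr shRNA library. In bulk RNA, a lower level in each cell and fewer cells with the RNA cannot be told apart.

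GAS5, encoded on the minus strand at chr1:173827697-173838020 (GRCh37, as all gene positions here), carries the largest number of snoRNAs in the group, mostly of the C/D box kind. Its FPKM was 245, 118 and 179 in ROCK2 KD replicates 1, 2 and 3, and 302, 127 and 226 in the Scr shRNA libraries of the same numbers. Each ROCK2 KD library was thus below its own partner, while the level itself moved more with the replicate number than with the shRNA. The fold change was -0.26 on the log2 scale (SE 0.10, 95% interval -0.48 to -0.03, limma adjusted p = 0.898), with differences of -0.30, -0.10 and -0.36 in the 3 pairs.

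SNHG7, encoded on the minus strand at chr9:139615818-139622636, holds 2 H/ACA box snoRNAs. Its FPKM was 42.3, 23.6 and 30.1 in ROCK2 KD, against 49.7, 34.5 and 34.0 in Scr shRNA. The difference was widest in pair 2, at -0.53, and was -0.23 and -0.19 in pairs 1 and 3. The log2 fold change stood at -0.32 (SE 0.11, 95% interval -0.58 to -0.06, limma adjusted p = 0.888), and the intervals of SNHG7 and GAS5 were those among the 10 that did not hold 0. The adjusted p of the other 8 hosts ran from 0.909 to 0.996 from limma.

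SNHG12, SNHG3 and SNHG1 had similar or larger mean differences, which came mainly from pair 3, the pair in which ROCK2 itself differed most, and the part of ROCK2 in this was not tested. SNHG12, encoded on the minus strand at chr1:28905050-28909644 and host to 3 H/ACA box snoRNAs and a C/D box snoRNA, had an FPKM of 19.3, 7.34 and 2.38 in ROCK2 KD and of 20.9, 8.46 and 6.05 in Scr shRNA. Its differences were -0.11, -0.18 and -1.04, a log2 fold change of -0.44 (SE 0.19, 95% interval -0.90 to 0.01). Replicates 1 and 2 were thus close to their partners, and ROCK2 KD replicate 3 held the lowest value.

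SNHG3, encoded on the plus strand at chr1:28832492-28837404, carries both copies of the H/ACA box snoRNA SNORA73, which takes part in the cleavage of precursor ribosomal RNA. Its FPKM was 6.85, 17.9 and 8.32 in ROCK2 KD and 6.79, 21.7 and 14.1 in Scr shRNA, level in pair 1 and lower in pairs 2 and 3. The log2 fold change was -0.32 (SE 0.15, 95% interval -0.68 to 0.04). SNHG3 lies on the same strand within RCC1, which encodes the guanine nucleotide exchange factor of RAN, so the assignment of reads between them is uncertain. The differences of RCC1 in the 3 pairs were -0.17, 0.12 and -0.58, against 0.01, -0.26 and -0.71 for SNHG3.

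SNHG1, encoded on the minus strand at chr11:62619450-62623425, holds mostly C/D box snoRNAs, with SNORD22 among them. Its FPKM was 135, 97.1 and 37.5 in ROCK2 KD and 155, 94.0 and 64.5 in Scr shRNA. The log2 fold change was -0.31 (SE 0.16, 95% interval -0.69 to 0.07), made of a difference of -0.79 in pair 3 and of -0.19 and 0.05 in pairs 1 and 2. SLC3A2, the heavy chain of amino acid transporters, starts 51 bases away on the other strand. Its differences were -0.47, 0.12 and 0.00, level in pair 3, where SNHG1 had its widest difference.

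The other 5 hosts had intervals that held 0 on both sides and mean differences between -0.19 and -0.03. SNHG15, at chr7:45022618-45026560 and host to SNORA9, had an FPKM of 43.3, 61.3 and 36.9 in ROCK2 KD and of 52.3, 55.8 and 49.1 in Scr shRNA. It was lower in pairs 1 and 3 and higher in pair 2, with a log2 fold change of -0.19 (95% interval -0.49 to 0.12). SNHG8, at chr4:119199858-119206471 and host to SNORA24, had an FPKM of 83.4, 217 and 124 in ROCK2 KD and of 74.1, 230 and 191 in Scr shRNA. Its mean difference of -0.19 (95% interval -0.56 to 0.19) came from pair 3, at -0.64, since pair 1 stood at 0.17 and pair 2 at -0.08.

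SNHG5, at chr6:86360209-86388650 and host to SNORD50A and SNORD50B, had an FPKM of 184, 483 and 466 in ROCK2 KD and of 197, 485 and 576 in Scr shRNA. The first 2 pairs were nearly level at -0.10 and -0.01 and the third stood at -0.33, a log2 fold change of -0.14 (95% interval -0.38 to 0.09). SNHG6, at chr8:67832796-67838633 and host to SNORD87, had an FPKM of 239, 174 and 212 in ROCK2 KD and of 257, 201 and 206 in Scr shRNA. It had a log2 fold change of -0.10 (95% interval -0.32 to 0.12), with the widest difference, -0.21, in pair 2. SNHG16, at chr17:74553809-74667067 in an annotation that includes long transcripts and host to the SNORD1 family, had an FPKM of 8.10, 36.3 and 22.0 in ROCK2 KD and of 10.2, 28.7 and 23.3 in Scr shRNA. Its differences were -0.31, 0.33 and -0.10, and the mean of -0.03 (95% interval -0.36 to 0.31) was smaller in size than each of them.

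**Figure D2:**
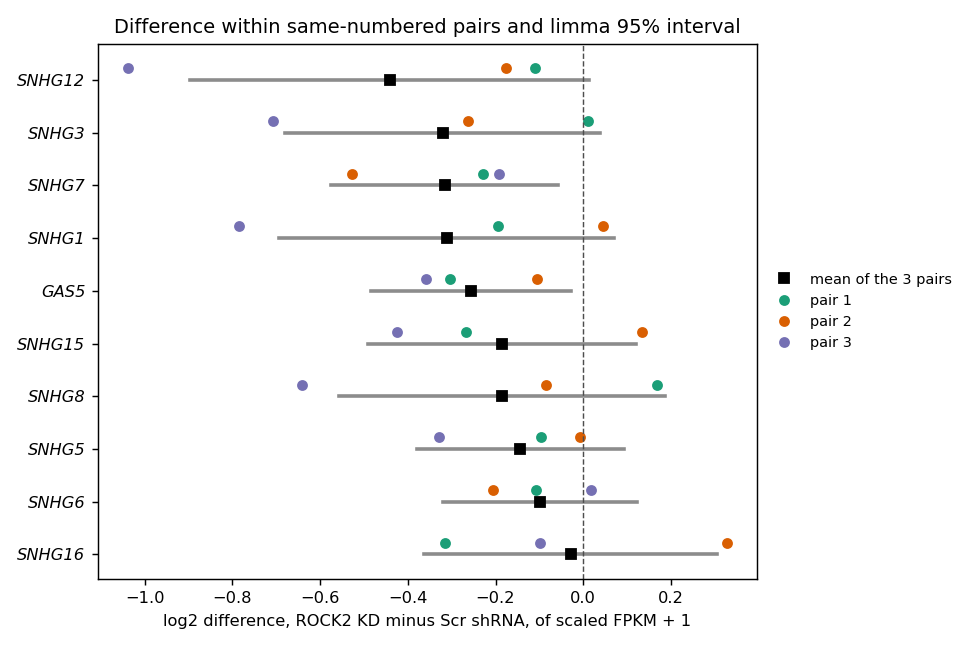
Log2 difference between ROCK2 KD and Scr shRNA (x axis, log2(scaled FPKM + 1)) for each host gene, with the 3 same-numbered pairs as circles, their mean as a square and the limma 95% interval as a bar. All 10 means lie below 0, the bars of GAS5 and SNHG7 end below 0, and pair 3 is the lowest circle in SNHG12, SNHG1, SNHG3, SNHG8, SNHG15, GAS5 and SNHG5.

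The size of these differences depended on replicate 3. Without replicate 3 the log2 fold change was -0.14 for SNHG12, -0.12 for SNHG3, -0.07 for SNHG1, -0.06 for SNHG15 and -0.04 for SNHG5, it was 0.050 for SNHG8 and 0.01 for SNHG16, and the median of the 10 was -0.09. GAS5 stood at -0.20 and SNHG7 at -0.37. The unadjusted p of GAS5 from limma was then 0.124, and it was 0.131 without replicate 1 and 0.0417 without replicate 2. That of SNHG7 was 0.0312 without replicate 3, 0.0428 without replicate 1 and 0.152 without replicate 2, so neither stayed under 0.05 with each replicate left out. Other hosts came under 0.05 in some of these fits, with an unadjusted limma p for SNHG12 of 0.0336 without replicate 1 and 0.0195 without replicate 2. SNHG3 stood at 0.0210 without replicate 1, and SNHG1 at 0.0117 and SNHG15 at 0.0296 without replicate 2. Of all genes tested, 5% were lower in ROCK2 KD with an unadjusted p under 0.05 without replicate 1, 1.75% without replicate 2 and 1.51% without replicate 3. Without replicate 1 SNHG8 stood at -0.36, SNHG3 at -0.49 and SNHG12 at -0.63, and SNHG16 was at 0.12. Without replicate 2 SNHG1 was at -0.49, SNHG15 at -0.35 and SNHG16 at -0.21. SNHG6, at -0.10 with all libraries, was at -0.05 without replicate 2 and at -0.15 without replicate 3. In every one of these fits with a replicate left out the adjusted p of each host stayed above 0.05.

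The replicate number accounted for more of the spread of the host genes than the shRNA did. The replicate means of a host lay from 0.64 (SNHG8) to 2.83 (SNHG12) apart on the log2 scale. In each of the 10 this was more than the size of the difference between ROCK2 KD and Scr shRNA. A range over 3 means tends to exceed a difference between 2 groups, and the share of all genes with such a range was not counted. Of the spread (sum of squares), the replicate number held a median of 91.1% in the hosts and 82.8% in all genes tested. In a limma F test of the replicate number, added after the values had been seen, 9 of the 10 hosts had an adjusted p under 0.05, against 48.7% of all genes tested. SNHG8 was the exception, at an adjusted p of 0.0605 from limma. The lowest value was that of GAS5, at an adjusted p of 0.000229 from limma. With replicate 1 left out, GAS5 alone passed between replicates 2 and 3, with an adjusted p of 0.0343 from limma, and the calls of the other 8 were lost. Of all genes tested in that fit 5.04% passed.

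The hosts fell on both sides of this difference. Relative to replicates 2 and 3, SNHG12 stood 2.44 higher on the log2 scale in replicate 1, SNHG1 1.89, GAS5 1.61, SNHG7 1.39 and SNHG6 1.15, and these 5 were also higher in replicate 1 under median-of-ratios scaling, quantile normalization and no scaling. SNHG16 stood at -0.70, SNHG5 at -0.57 and SNHG3 at -0.26, below 0 under the same alternatives. SNHG15 stood at 0.75 and SNHG8 at -0.41, but SNHG15 was at -0.07 without scaling and SNHG8 at 0.10 after quantile normalization. Without scaling the median of all genes itself lay at -0.70 in this comparison. What differed in the handling of replicate 1 is not given in the labels, and its part in the result was not tested.

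**Figure D3:**
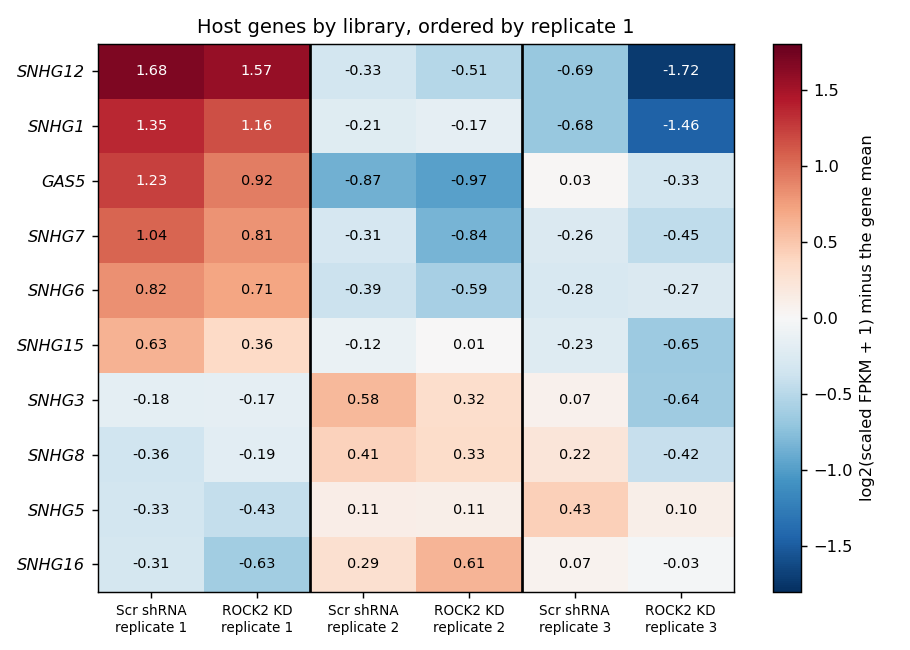
Heat map of log2(scaled FPKM + 1) minus the mean of the gene for the 10 host genes (rows, ordered by their level in replicate 1) in the 6 libraries (columns, grouped by replicate number), with each value printed in its cell. SNHG12, SNHG1, GAS5, SNHG7, SNHG6 and SNHG15 are above their mean in both libraries of replicate 1, and SNHG3, SNHG8, SNHG5 and SNHG16 are below it.

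The mean profile of the 10 hosts, each taken relative to its own mean, stood at 0.41, -0.17 and -0.59 in ROCK2 KD replicates 1, 2 and 3 and at 0.56, -0.08 and -0.13 in Scr shRNA. SNHG15 lay closest to it, at a root mean square distance of 0.10 on the log2 scale, and SNHG12 furthest, at 0.85. Of the 10 hosts, 7 lay further from their own mean profile than the median of all genes tested, so that it describes few of them closely. The 5 other genes nearest to this average over the 6 libraries were TRMT10B, ZNF670, MAFG, MAP4 and LOC150776, at distances from 0.05 to 0.07. TRMT10B belongs to a family of tRNA methyltransferases, MAFG is a small MAF transcription factor and MAP4 a microtubule-associated protein.

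Of the snoRNAs inside the hosts, 8 had values of their own, and 32 of their 48 values were listed at 0. SNORD76 of GAS5 had an FPKM of 551 in ROCK2 KD replicate 3 and was listed at 0 in the other 5 libraries, SNORD22 of SNHG1 was above 0 in 4 libraries, at 12.4 to 26.8, SNORA9 of SNHG15 was above 0 in 4 libraries, at 7.22 to 29.5, and SNORA24 of SNHG8 was above 0 only in ROCK2 KD replicates 2 and 3, at 21.4 and 16.9. FPKM divide by length, and these RNAs are short (SNORD78 of GAS5, which has no row, spans 65 bases). A few fragments can thus give a high FPKM, and the 551 of SNORD76 cannot be set beside the level of GAS5. No snoRNA was above 0 in all 6 libraries, and no comparison of host and snoRNA was made from them.

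Further noncoding hosts, protein-coding hosts and the factors that act on host RNAs were then set beside the 10. Of 9 other noncoding hosts, all tested, 7 were below 0 and 2 above, with a median of -0.13, and 0 passed an adjusted p of 0.05 or an unadjusted p of 0.05 from limma. SNHG10 had the lowest log2 fold change, -0.43, and DANCR the highest, 0.02, while ZFAS1, an abundant host whose snoRNAs are of the C/D box kind, stood at -0.11. Of 30 protein-coding hosts, 19 were below 0 and 11 above, with a median of -0.04. RPL13A, a protein of the large ribosomal subunit, and EEF2, the elongation factor that drives translocation, were those with an unadjusted p under 0.05, at log2 fold changes of -0.23 and -0.23, where 2.3% of all genes tested had such a p and were lower.

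The proteins that build or form snoRNA particles had 11 of 16 members below 0 and a median of -0.03, from -0.19 for RUVBL1, an ATPase of the assembly machinery, to 0.08 for SHQ1, an assembly factor of H/ACA particles. Of 13 nonsense-mediated decay genes, 10 were below 0 and 3 above, with a median of -0.08. UPF3B, which links the exon junction complex to UPF1, was the 1 member of 13 that was lower with an unadjusted p under 0.05 (2.3% of all genes tested), at -0.28 (SE 0.10, limma adjusted p = 0.888), UPF1, the central helicase, stood at -0.17, and NBAS was the highest at 0.16. With ComBat in place of the block UPF3B had an adjusted p of 0.0369 from limma, at -0.22. It was the member of the 6 lists that passed, where 2.82% of all genes tested passed in that fit. That fit tests the values as if no replicate effect had been removed, so its p values can be too small. Of 13 regulators of TOP mRNAs, 5 were below 0 and 8 above, with a median of 0.01, from -0.05 for RPTOR to 0.15 for EIF4EBP2, and LARP1, which binds TOP starts, stood at -0.02. Lower values in all 3 pairs were seen for 5 of the 13 decay genes, 3 of the 30 protein-coding hosts, 1 of the 9 other noncoding hosts and none (0) of the particle proteins and TOP regulators, where 12.3% of all genes tested were lower in all 3 pairs. NOP56 and DKC1 stand in both the list of protein-coding hosts and that of the particle proteins.

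By pair, the median log2 difference of the 10 hosts was -0.15, -0.09 and -0.39 in pairs 1, 2 and 3, where all genes tested had medians of 0.01, -0.01 and 0.00. The other noncoding hosts had -0.01, -0.14 and -0.33, the protein-coding hosts 0.06, 0.02 and -0.20, and the particle proteins 0.04, 0.09 and -0.22. The TOP regulators had 0.09, 0.04 and 0.01, so these 5 lists had their lowest median in pair 3. The decay genes had -0.20, -0.03 and -0.02, with the lowest in pair 1. No test of these lists was made.

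**Figure D4:**
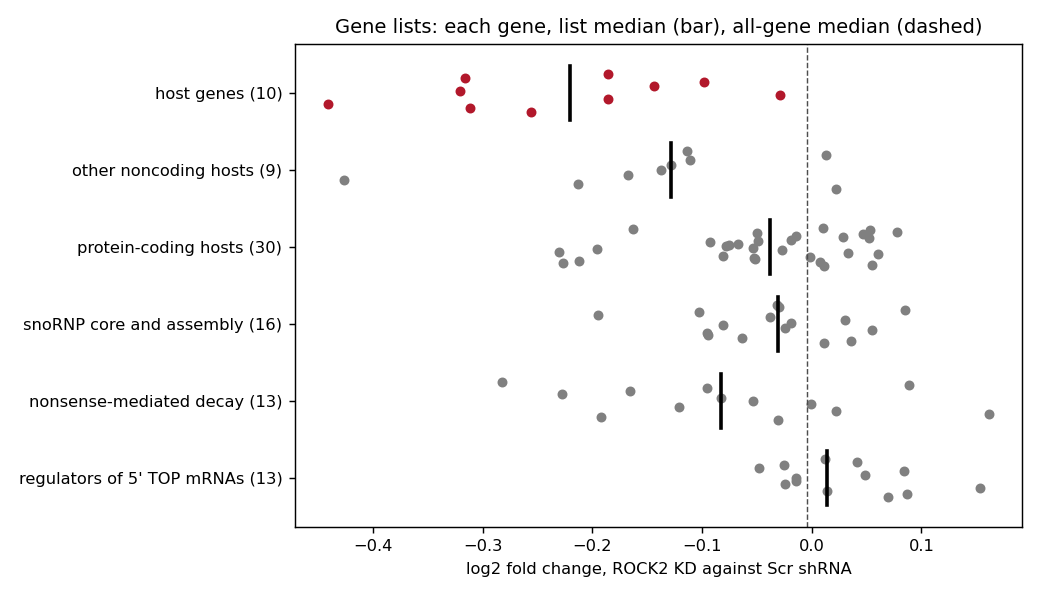
Log2 fold change between ROCK2 KD and Scr shRNA (x axis) of each gene (point) in the 10 host genes and in 5 related lists, with the number of genes tested in parentheses, the median of the list as a bar and the median of all genes tested as a dashed line. The 10 host genes have a median of -0.22 and all lie left of the dashed line, and the other lists have medians from -0.13 to 0.01.

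Several hosts overlap or adjoin protein-coding genes, and without the strand of a read their signal cannot be told apart where exons overlap. ZBTB37, on the other strand at the start of GAS5, had log2 differences of -0.15, -0.16 and -0.30 in pairs 1 to 3. TRNAU1AP, whose end meets that of SNHG12, had 0.27, -0.05 and -0.21. MCMDC2 at SNHG6, PRSS12 at SNHG8 and ST6GALNAC1 and ST6GALNAC2 within the span of SNHG16 were below the filter, at an FPKM of at most 0.839.

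The p values of the hosts depended on how the replicate number was handled. When ComBat removed the replicate effect with no term for the shRNA and limma followed with no block, 297 genes (2.82% of those tested) had an adjusted p under 0.05, and the hosts were not among them. SNHG7 and GAS5 came nearest, with adjusted p values of 0.0624 and 0.0687 from limma. Here limma tests the values as if no replicate effect had been removed, so these p values can be too small. An unadjusted p under 0.05 was reached by 2112 genes in this fit, against 567 with the block. Without the replicate block, which leaves the fold changes as they are, the unadjusted p values of the 10 hosts ran from 0.329 to 0.934 from limma, with 0.711 for GAS5 and 0.573 for SNHG7.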

How the data were processed

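RNA-seq was performed by the study on 6 U2932 libraries, 3 ROCK2 KD and 3 Scr shRNA, grouped and numbered by the labels. Per the labels and the methods, the authors aligned paired reads to hg19 with STAR and computed the deposited FPKM with Cufflinks. The annotation and the use of strand are not given in the sources used here. Depth is not stored in FPKM, so no counting interval is given.

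Libraries were scaled by an unweighted trimmed mean of their log ratios (trims of 0.3 and 0.05), and log2(scaled FPKM + 1) was fitted in R 4.3.3 by limma 3.58.1 for the 10526 genes that reached 1 FPKM in 3 or more libraries. The model held a block for the replicate number and a variance trend, and p values were adjusted by Benjamini-Hochberg with a threshold of 0.05. All tests were two-sided. The pairing rests on the shared numbers of the labels and on the study's correction for a replicate-based batch effect. For libraries sharing a number, deviations from the group mean had r across genes (which are not independent replicates) of 0.848, 0.784 and 0.737. The fit was also run on simulated data as a check of the code, and the outcome is not reported here. Tables and plots were made in Python 3.11.15 with pandas 2.3.3, numpy 2.4.6 and matplotlib 3.10.9.

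The members, lists and alternatives were chosen with earlier results of these data known. Named genes were all 10 members, ROCK2, snoRNAs with a row, the lowest and highest gene of each list, the 5 nearest profiles and annotated neighbours. EEF2, UPF1, ZFAS1 and LARP1 were named after their values were seen. Some genes that this rule names are not reported here. Alternatives covered the block, ComBat, the filter, the pseudocount, the scaling, the trend and each replicate left out. Gene positions are from GENCODE 44 lifted to GRCh37, the sequence of hg19, and promoter sequences and snoRNA positions from RefSeq on GRCh38.p14, used for no other coordinate.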

Additional observations from a re-analysis of the deposited data

How the results depend on the processing

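Over 12 alternatives, the log2 fold changes of the 10 hosts kept their direction in 117 of 120 cases, and none passed an adjusted p of 0.05 from limma. The 3 that turned were SNHG16 without replicate 1 (0.12) and without replicate 3 (0.01), and SNHG8 without replicate 3 (0.050). With a replicate left out SNHG16 ran from -0.21 to 0.12 and SNHG8 from -0.36 to 0.050. The median of the hosts, -0.22 with all libraries, ran from -0.29 to -0.09 with a replicate left out and was -0.16 after ComBat, and the number of hosts below 0 ran from 8 to 10. The count of tested genes with an adjusted p under 0.05 went from 0 to 297 with ComBat in place of the block (160 higher and 137 lower), and lay between 0 and 1 with a replicate left out. Without the replicate block 0 genes passed and 30 had an unadjusted p under 0.05 from limma, against 567 with it, GAS5 (0.711) and SNHG7 (0.573) no longer among them, and no call at an adjusted p of 0.05 changed. For the replicate number, an F test added after seeing the data, the hosts called numbered 1 to 10 with a replicate left out (1 without replicate 1) and 6 to 10 otherwise, with 6 when no filter was used, and the genes called 516 to 4525 with a replicate left out, 8113 without scaling and 5128 in the fit reported. The cause of these shifts was not tested. FPKM keep no counts, so the counting error of the low hosts SNHG12 and SNHG3 is not known.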
